A study of Arabidopsis thaliana with 57 samples.

Results

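SRDX-SPCH and SRDX-FAMA are repressor forms of a pair of stomatal transcription factors, made by fusing SPEECHLESS (SPCH) or FAMA to SRDX, a short domain that turns an activator into a repressor. Their effects on the transcriptome were compared in the same cells, those in which the FAMA promoter is active. All libraries of the 2 SRDX lines at 2, 3 and 4 h of induction were taken except the library labelled SRDX-FAMA 4 h replicate 2, and the rows of SPCH (AT5G53210) and FAMA (AT3G24140) were removed because reads of a transgene fall on them. This left 11 SRDX-SPCH and 11 SRDX-FAMA libraries, 22 of the 57 in the series. The Arabidopsis thaliana (Col-0) lines all carried LhG4-GR, an artificial activator fused to a hormone receptor, under the FAMA promoter, and a Venus-tagged protein under the OP promoter that LhG4-GR binds. Dexamethasone (DEX) lets LhG4-GR enter the nucleus, so that the tagged protein accumulates on top of the endogenous SPCH and FAMA, which all lines retain. The tagged protein was SRDX-SPCH, SRDX-FAMA, SPCH, FAMA or, in the control line, a nuclear localization signal alone (NLS). Young seedlings were treated for 2, 3 or 4 h, protoplasted, and sorted for Venus fluorescence, and each SRDX line had 3 or 4 libraries per time point in the comparison. Each construct was sampled in what the labels give as 1 line, so an effect of the protein and an effect of that transgenic line cannot be told apart, and the sort gathers every cell type in which the FAMA promoter is active.

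Stomata arise from a series of asymmetric divisions that end in a guard mother cell (GMC), which divides symmetrically into a pair of guard cells (GCs). The basic helix-loop-helix factors SPCH, MUTE and FAMA act in that order, each with the partner SCREAM (SCRM) or SCRM2: SPCH starts the lineage, MUTE commits cells to the GMC fate, and FAMA ends division and drives GC differentiation. FAMA is also required for myrosin cells, which lie along leaf veins and store myrosinases, the enzymes that release toxic products from glucosinolates when tissue is damaged. A factor fused to SRDX is usually read as turning down the genes it binds.

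The labels matched the transgenes in the 22 libraries. SPCH stood at 4910 to 9467 CPM (counts relative to the library total) in SRDX-SPCH and at 16.7 to 41.4 in SRDX-FAMA, and FAMA at 225 to 411 CPM in SRDX-SPCH and at 2535 to 5604 in SRDX-FAMA. A further library, labelled SRDX-FAMA 4 h replicate 2, had 9511 CPM of SPCH, and its counts differed from those of SRDX-SPCH 2 h replicate 3 by a mean chi-square of 1.24 per gene over 16486 genes, against 5.21 to 50.7 in the other 252 pairs of SRDX libraries, so that it was left out. Total counts lay between 7296381 and 45286033 for SRDX-SPCH, around a median of 33455383, and between 26875285 and 41721496 for SRDX-FAMA, around 33263292. Library names end in a letter whose meaning the labels do not give. Reads on plastid genes made up 0.411% to 0.747% of the 10 libraries with letters e and f, and 0.183% to 0.567% of the 12 with letters a to d. The lines held these letters unevenly, with 4 SRDX-SPCH and 6 SRDX-FAMA libraries among e and f. The highest value among letters a to d was that of SRDX-SPCH 4 h replicate 3, and the next was 0.384%. The first principal component, the main axis of variation between libraries (59% of the variance), also placed it with letters e and f. Libraries of letters e and f scored positive and those of a to d negative, except for this library (33.7). In the fits within letters it was kept among a to d. The plastid share and the letter moved with some of the differences below. Each was also put in the model of the main comparison, with the counts given below. What the letter or the plastid share stands for was not tested. Of the sorted cell types, all 6 GMC and meristemoid markers and all 8 GC markers on the lists had reads in both lines. The summed GC markers stood at 878 to 1705 normalized CPM in SRDX-SPCH (median 1248) and at 482 to 1219 in SRDX-FAMA (median 691).

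Of 23758 genes with enough counts, 637 (2.68%) were higher and 622 (2.62%) lower in SRDX-SPCH than in SRDX-FAMA (edgeR's quasi-likelihood test with time point in the model, Benjamini-Hochberg adjusted p under 0.05). In all, 1259 genes (5.3%) were called. With the letter of the library name as a block, 1038 genes were higher and 1358 lower, among them 616 of the 637 and 618 of the 622. With the plastid share as a covariate 996 were higher and 855 lower, among them all 637 and all 622. In the main fit the higher genes were 50.6% of the calls, against 43.3% with the letter block, 40.1% in 1 fit of all 5 lines, 75.1% within letters e and f, and 91.7% of the 12 calls at 2 h. Most differences were small. The change was at least 2-fold for 135 of the higher genes (0.568% of those tested) and for 102 of the lower ones (0.429%), and the libraries of the 2 lines did not overlap for 60 of the higher genes (0.253%) and 21 of the lower ones (0.0884%). Within the libraries with letters a to d (7 SRDX-SPCH, 5 SRDX-FAMA) 181 genes were higher and 166 lower, and within letters e and f 130 were higher and 43 lower. The total ranged from 917, without SRDX-SPCH 3 h replicate 1, to 1387, without SRDX-FAMA 2 h replicate 2, and without SRDX-SPCH 2 h replicate 3, which resembled the library left out, 493 genes were higher and 490 lower.

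**Figure D1:**
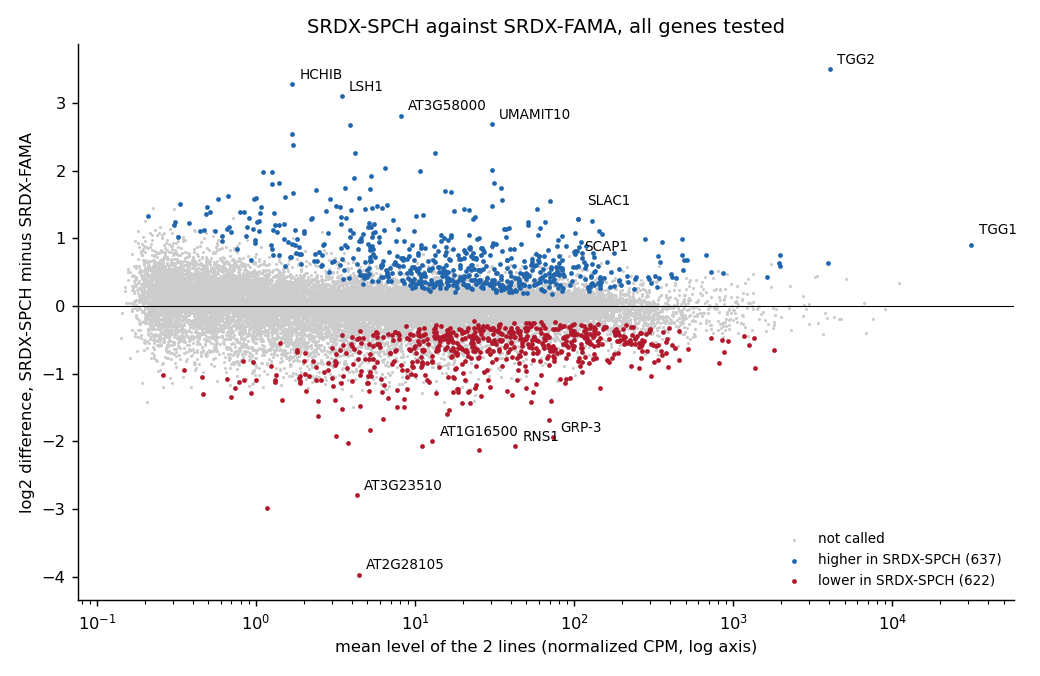
Log2 difference between the lines (SRDX-SPCH minus SRDX-FAMA) against the mean level of each of the 23758 genes tested (normalized CPM, log axis), with called genes in blue (637 higher) and red (622 lower) and the others in grey. TGG2 stands out as an abundant gene with a difference of 3.50, and AT2G28105 has the lowest labelled value, -3.98.

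The myrosinases were higher in SRDX-SPCH. TGG2 (AT5G25980), which encodes a leaf myrosinase, stood at 300.6 to 1110 normalized CPM in SRDX-FAMA (median 620) and at 4721 to 12970 in SRDX-SPCH (median 7702). The lowest SRDX-SPCH library was thus well above the highest SRDX-FAMA library, at every time point. The log2 difference was 3.50 (standard error 0.245, adjusted p = 6.37e-09), and it was 3.39 within letters a to d and 3.35 within letters e and f. TGG1 (AT5G26000), the other leaf myrosinase and by itself 1.23% to 4.73% of all reads in these libraries, lay between 12240 and 38850 normalized CPM in SRDX-FAMA, with a median of 19880, and between 28260 and 50340 in SRDX-SPCH, with a median of 40150. Its groups overlapped, and it was higher by 0.91 (standard error 0.172, adjusted p = 0.00237). Within letters a to d it differed by 0.65 (adjusted p = 0.158) and within letters e and f by 1.09 (adjusted p = 0.204), both short of the threshold. MVP1, a GDSL-family protein that acts in endomembrane trafficking, differed by -0.18 (adjusted p = 0.33). Of the 3 genes listed as myrosin cell markers 2 were therefore higher. Which of the sorted cell types held their reads was not tested. In these bulk samples, fewer cells of a type and less RNA per cell cannot be told apart.

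The control line put TGG2 between the SRDX lines. With all 5 lines scaled together, the median of TGG2 was 2260 normalized CPM in NLS, 607 in SRDX-FAMA and 7406 in SRDX-SPCH, so that SRDX-FAMA lay below NLS by a log2 difference of -1.92 (adjusted p = 4.02e-09) and SRDX-SPCH above it by 1.56 (adjusted p = 1.15e-06). Both contrasts share the NLS libraries. As a reference NLS has a limit that the study describes: its reporter differed in brightness from the other lines, so that its sort may have taken in more dim cells and another mix of cell types. Against NLS, 3.08% of 24270 genes were higher and 2.66% lower in SRDX-FAMA (5.74% in all), and 1.84% were higher and 1.76% lower in SRDX-SPCH (3.61% in all). The lines without SRDX had medians of 2817 (FAMA) and 9805 (SPCH).

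Several less abundant genes followed the order of TGG2 across SRDX-FAMA, NLS and SRDX-SPCH. LSH1 (AT5G28490), from a family of nuclear proteins that act in light-dependent growth and organ boundaries, stood at 0.33 to 1.18 normalized CPM in SRDX-FAMA (median 0.724) and at 4.16 to 11.3 in SRDX-SPCH (median 5.72), a difference of 3.1 (standard error 0.206, adjusted p = 4.63e-09). AT3G58000, which encodes a VQ motif protein, was higher by 2.81 (standard error 0.192, adjusted p = 5.51e-09), with 1.09 to 3.59 normalized CPM in SRDX-FAMA and 10.2 to 21 in SRDX-SPCH. The gene PGL34, 54 bases from AT3G58000, was higher by 0.38 (adjusted p = 0.032). UMAMIT10 (AT3G56620), of the UmamiT transporter family whose studied members carry amino acids, ran from 5.2 to 13.9 in SRDX-FAMA and from 24.5 to 95.4 in SRDX-SPCH, a difference of 2.69 (standard error 0.214, adjusted p = 4.85e-08). The basic chitinase gene HCHIB (AT3G12500) was higher by 3.28 (standard error 0.383, adjusted p = 7.73e-06) but low throughout, with medians of 2.09 and 0.337 normalized CPM, and an antisense gene covers 33.1% of its exonic bases. None of LSH1, AT3G58000, UMAMIT10 and HCHIB had overlapping libraries. Against NLS, LSH1, AT3G58000, UMAMIT10 and HCHIB differed by -1.74, -1.3, -1.27 and -1.76 in SRDX-FAMA and by 1.35, 1.51, 1.41 and 1.52 in SRDX-SPCH, all past the threshold. ABCG29 (AT3G16340), a monolignol transporter, and AT1G10610, a bHLH gene, were higher by 1.69 and 1.43 (adjusted p = 2.31e-07 and 4.44e-08). Against NLS, ABCG29 was higher in SRDX-SPCH (1.33, adjusted p = 7.48e-06), with a difference of -0.32 in SRDX-FAMA that was short of the threshold (adjusted p = 0.465), and AT1G10610 differed by 1.01 in SRDX-SPCH (adjusted p = 2.31e-08) and by -0.40 in SRDX-FAMA (adjusted p = 0.0234).

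**Figure D2:**
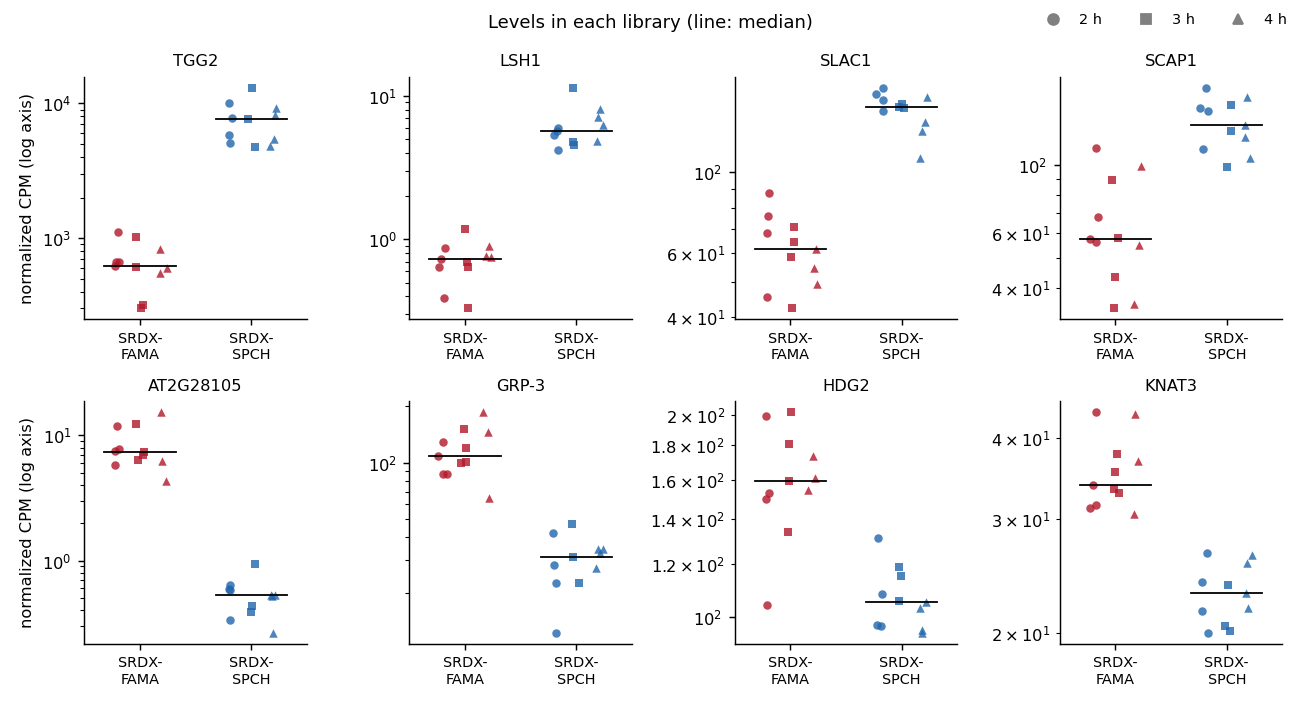
Normalized CPM (log axes) of 8 genes in each of the 22 libraries, with SRDX-FAMA in red, SRDX-SPCH in blue, a marker shape per time point and the median as a line. The lines are fully apart for TGG2, LSH1, SLAC1, AT2G28105, GRP-3 and KNAT3, and they overlap for SCAP1 (34.3 to 113 against 98 to 177) and HDG2 (104 to 201 against 94.8 to 131).

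Among genes of mature GCs, SLAC1 and SCAP1 were lower in SRDX-FAMA than in both SRDX-SPCH and the control. SLAC1 (AT1G12480), the anion channel that starts stomatal closure, stood at 42.3 to 87.7 normalized CPM in SRDX-FAMA (median 61.4) and at 110 to 170 in SRDX-SPCH (median 151). The groups did not overlap, and the log2 difference was 1.28 (standard error 0.101, adjusted p = 4.64e-08). Antisense genes cover 43% of the exonic bases of SLAC1, of which AT1G12470 was higher by 0.31, and the neighbouring gene AT1G12490 was higher by 1.31. SCAP1 (AT5G65590), a Dof transcription factor required for GC maturation, stood at 34.3 to 113 in SRDX-FAMA (median 57.5) and at 98 to 177 in SRDX-SPCH (median 134), a difference of 1.08 (standard error 0.179, adjusted p = 0.00059). The 2 highest SRDX-FAMA libraries reached the SRDX-SPCH range. With the 5 lines scaled together, SLAC1 had medians of 139, 134 and 133 in NLS, FAMA and SPCH, 148 in SRDX-SPCH and 60.4 in SRDX-FAMA, and SCAP1 had 129, 139 and 116, then 135 and 57.3. SRDX-FAMA was below NLS by -1.23 for SLAC1 (adjusted p = 6.4e-14) and by -1.09 for SCAP1 (adjusted p = 2.42e-06), and SRDX-SPCH differed from NLS by 0.01 and -0.03, short of the threshold. AT4G35070, an S-ribonuclease binding protein gene, and SYP23, a syntaxin of the endomembrane system, had the same order, with differences between the SRDX lines of 1.57 and 0.83 (adjusted p = 9.62e-08 and 2.1e-07) and of -1.55 and -0.86 between SRDX-FAMA and NLS. The gene AT4G17720 beside SYP23 was higher by 0.37 (adjusted p = 0.0146).

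Of 20 genes for GC maturation and function, 7 were higher and 1 lower in SRDX-SPCH, where 2.68% and 2.62% of all genes were. The median was 0.35, against 0.02 over all genes. Beside SLAC1 and SCAP1 the higher ones were WSB, which encodes an AP2/ERF factor (1.0), the inward potassium channels KAT1 (0.74) and KAT2 (1.03), the malate channel ALMT6 (0.64) and the cation exchanger CHX20 (0.65). The carbonic anhydrase CA4 was lower (-0.34). Against NLS, 5 of the 20 were lower and 1 was higher in SRDX-FAMA (over all genes, 2.66% and 3.08%). In SRDX-SPCH 1 was lower (over all genes, 1.76%). In SRDX-FAMA, WSB (-0.86) and KAT2 (-0.67) were lower than NLS and CA4 was higher (0.36), whereas KAT1 (-0.26, adjusted p = 0.739) and ALMT6 (-0.28, adjusted p = 0.297) were short of the threshold. CHX20 was lower than NLS in both lines, by -1.3 in SRDX-FAMA and by -0.67 in SRDX-SPCH (adjusted p = 0.000136). KAT2 ran from 29 to 88.7 normalized CPM in SRDX-FAMA and from 70.8 to 155 in SRDX-SPCH. CHX20 ran from 174 to 399 and from 297 to 542. The call of KAT1 was lost in 10 of 22 fits that left out a library (0.63 to 0.85) and that of CA4 in 3 (-0.38 to -0.31). Other GC genes were short of the threshold, among them MYB60 (0.38), GORK (0.53), OST1 (0.33) and the anion channel ALMT12 (-0.03). In this list the counts followed the letters: within letters a to d 1 gene was higher and the median was 0.08, and within letters e and f 7 were higher and the median was 0.77. For SCAP1 the values were 0.76 (adjusted p = 0.11) and 1.39 (adjusted p = 0.015), whereas for SLAC1 they were 1.22 and 1.26, both past the threshold. The fits within letters hold fewer libraries. With the letter as a block in a fit of all the libraries, the 7 higher genes and CA4 kept their calls. 

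**Figure D3:**
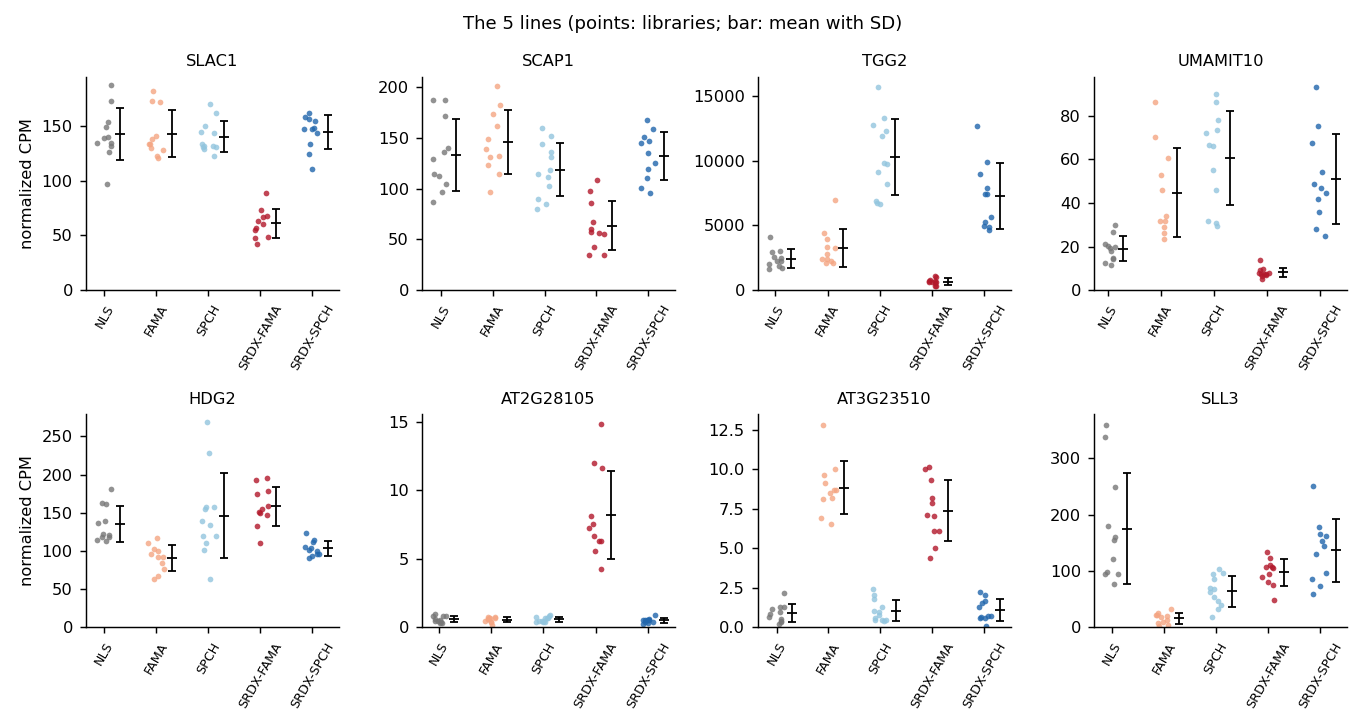
Normalized CPM of 8 genes in every library of the 5 lines (points), with the mean and SD as bars on linear axes from 0. SLAC1 and SCAP1 have their lowest means in SRDX-FAMA (60.9 for SLAC1, against 140 in SPCH and 142 in NLS), AT2G28105 has its highest there, and AT3G23510 is high in FAMA and SRDX-FAMA.

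The promoters of 4 lead genes are shown because SPCH and FAMA are bHLH factors, which bind E-boxes (CANNTG), and because the lines differ in the level of these genes. They were chosen after their values were seen. Each sequence was cut from the RefSeq genome (TAIR10.1) from 250 bases before to 50 bases after the annotated transcript start, on the gene's own strand, with E-boxes in capitals. They lie at chr5:9072458-9072757 (plus strand) for TGG2, chr1:4259251-4259550 (minus) for SLAC1, chr5:26213184-26213483 (minus) for SCAP1 and chr2:11976053-11976352 (plus) for AT2G28105.
TGG2: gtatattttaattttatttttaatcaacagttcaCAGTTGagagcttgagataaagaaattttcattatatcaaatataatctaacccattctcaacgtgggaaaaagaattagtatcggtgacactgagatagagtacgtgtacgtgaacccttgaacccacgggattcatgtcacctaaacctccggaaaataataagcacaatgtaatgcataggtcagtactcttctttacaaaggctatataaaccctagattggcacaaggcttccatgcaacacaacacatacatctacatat
SLAC1: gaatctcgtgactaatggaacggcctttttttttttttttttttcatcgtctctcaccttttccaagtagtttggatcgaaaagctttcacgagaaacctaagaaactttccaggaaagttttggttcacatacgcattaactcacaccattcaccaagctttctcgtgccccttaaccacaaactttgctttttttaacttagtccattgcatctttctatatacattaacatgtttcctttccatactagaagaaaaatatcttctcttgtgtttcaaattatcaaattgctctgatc
SCAP1: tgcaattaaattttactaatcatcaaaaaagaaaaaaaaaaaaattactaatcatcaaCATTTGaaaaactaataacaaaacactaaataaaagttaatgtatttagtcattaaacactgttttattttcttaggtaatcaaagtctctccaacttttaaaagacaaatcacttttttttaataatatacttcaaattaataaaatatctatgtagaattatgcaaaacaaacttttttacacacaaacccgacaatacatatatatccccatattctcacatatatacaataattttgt
AT2G28105: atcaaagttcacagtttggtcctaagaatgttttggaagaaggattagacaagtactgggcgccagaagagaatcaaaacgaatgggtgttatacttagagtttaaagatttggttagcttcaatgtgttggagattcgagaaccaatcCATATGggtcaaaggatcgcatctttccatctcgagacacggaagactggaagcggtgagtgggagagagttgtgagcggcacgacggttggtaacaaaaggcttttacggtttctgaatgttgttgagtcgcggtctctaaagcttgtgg
TGG2, SCAP1 and AT2G28105 each held 1 E-box, whose first base lay at -216, -192 and -101 from the start, and SLAC1 held 0. The window of AT2G28105 lies within the annotated gene FUC1. An E-box on either strand was present in 62% of 23638 promoters of tested genes, in 64.1% of those higher and in 63.7% of those lower in SRDX-SPCH. The G-box (CACGTG), a palindrome that is itself an E-box, was present in 8.26% of all promoters, in 11.8% of the higher group (75 promoters) and in 9.49% of the lower group (59 promoters). A match is a run of letters and not a measured binding site.

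Genes of the early lineage and GMC were also on balance higher in SRDX-SPCH, by small amounts. Of 18 genes 10 were higher and 1 lower (over all genes, 2.68% and 2.62%), with a median of 0.43 (all genes, 0.02). The higher ones were the bHLH partners SCRM (0.42) and SCRM2 (0.51), the polarity gene BASL (1.09), the receptor-like gene TMM (0.43), EPF1 (0.75), which encodes a peptide signal perceived with TMM, the protease gene SDD1 (0.79), FLP (0.69) and MYB88 (0.47), MYB factors that limit GMC division, SOL1 (0.74), which encodes a DNA-binding protein of fate transitions in the lineage, and CDKB1;1 (0.87), a kinase of the GMC division. BASL was low in all libraries, with 0.44 to 1.33 normalized CPM in SRDX-FAMA and 1.01 to 2.92 in SRDX-SPCH. SOL1 ran from 30.5 to 79.8 and from 59.5 to 128. No gene of the list had lines without overlap. Against NLS, 8 of the 18 were lower in SRDX-FAMA (median -0.48), where 2.66% of all genes were. In SRDX-SPCH 1 was lower (median -0.27), where 1.76% of all genes were, and 0 were higher in either line. Between the lines without SRDX, 7 were higher in SPCH than in FAMA (median 0.56), where 0.872% of all genes were. MUTE, the direct successor of SPCH, had medians of 1.67 in SRDX-FAMA and 1.39 in SRDX-SPCH and a difference of 0.18 (adjusted p = 0.747). EPF2, the peptide of early lineage cells, differed by 0.00 (standard error 0.202) and POLAR, a polarity gene, by -0.09 (standard error 0.144), both short of the threshold. The number of higher genes was 6 without SRDX-SPCH 2 h replicate 3 or without SRDX-SPCH 3 h replicate 1, and 0 within either set of letters, where the medians were 0.31 (a to d) and 0.48 (e and f). The 10 higher genes kept their calls with the letter as a block in a fit of all the libraries. With single libraries left out, the calls of EPF1, SCRM, SDD1 and TMM were lost in 9, 6, 3 and 3 of 22 fits, while their differences stayed between 0.64 and 0.88, 0.37 and 0.46, 0.69 and 0.87, and 0.39 and 0.48.

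HDG2 (AT1G05230) was the early lineage gene that went the other way. It encodes a homeodomain factor that promotes stomatal fate, and it stood at 104 to 201 normalized CPM in SRDX-FAMA (median 159) and at 94.8 to 131 in SRDX-SPCH (median 105). Only 1 SRDX-FAMA library lay within the SRDX-SPCH range, and the difference was -0.59 (standard error 0.0926, adjusted p = 0.00035). Between the lines without SRDX it was 0.68 (SPCH minus FAMA, adjusted p = 0.0439). The 2 differences differed from each other by -1.29 (standard error 0.203, adjusted p = 9.03e-05 from the interaction of line and form). HDG2 is among the genes that the study chose partly on its SPCH and FAMA libraries. That choice may favour the difference without SRDX and so the interaction. An antisense gene covers 26.2% of the exonic bases of HDG2.

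Of 21 receptors, kinases and phosphatases of stomatal patterning, 2 were higher and 2 lower (over all genes, 2.68% and 2.62%), with a median of -0.05. The higher ones were the GSK3-like kinase BIN2 (0.29) and the phosphatase BSU1 (0.77), both of the brassinosteroid pathway. The lower ones were the kinase MKK9 (-0.66) and BRX (-0.78), whose family takes part in polarity. The ERECTA family receptor ER differed by -0.37 (adjusted p = 0.63), ERL1 by -0.10 and the kinase YDA by 0.15 (adjusted p = 0.22), all short of the threshold.

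Of 41 genes for mitosis and cytokinesis 3 were higher and 0 lower, CDKB1;1 (0.87), CDKB2;1 (0.80) and CYCA1;1 (1.06). Over all genes, 2.68% were higher and 2.62% lower. The median of the list was 0.24. CYCA1;1, an A-type cyclin, ran from 1.42 to 4.68 normalized CPM in SRDX-FAMA and from 3.49 to 11.4 in SRDX-SPCH, with overlap. In the lines without SRDX, 27 of the 41 were higher in SPCH than in FAMA, where 0.872% of all genes were, and the median was 0.93. Against NLS, 14 of the 41 were lower in SRDX-FAMA (median -0.44), where 2.66% of all genes were, and 0 in SRDX-SPCH (median -0.37). The summed level of the list was 274 to 862 normalized CPM in SRDX-SPCH and 290 to 620 in SRDX-FAMA, with medians of 479 and 499. None of 16 DNA replication genes was called in either direction (median -0.25). Of 10 D-type cyclins 1 was lower, CYCD3;2 (-0.57). CYCD5;1 and CYCD7;1, D-type cyclins linked to the GMC division, differed by -0.12 and 0.18 (adjusted p = 0.686 and 0.788). Of 10 CDK inhibitors 2 were lower, SIM (-0.68) and KRP1 (-0.69). An antisense gene covers 31.4% of the exonic bases of SIM. The calls of CDKB2;1 and SIM were each lost in 5 of 22 fits that left out a library (0.67 to 0.90 and -0.76 to -0.54), and the mitosis list held 2 to 5 called genes, the most without SRDX-FAMA 2 h replicate 3.

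**Figure D4:**
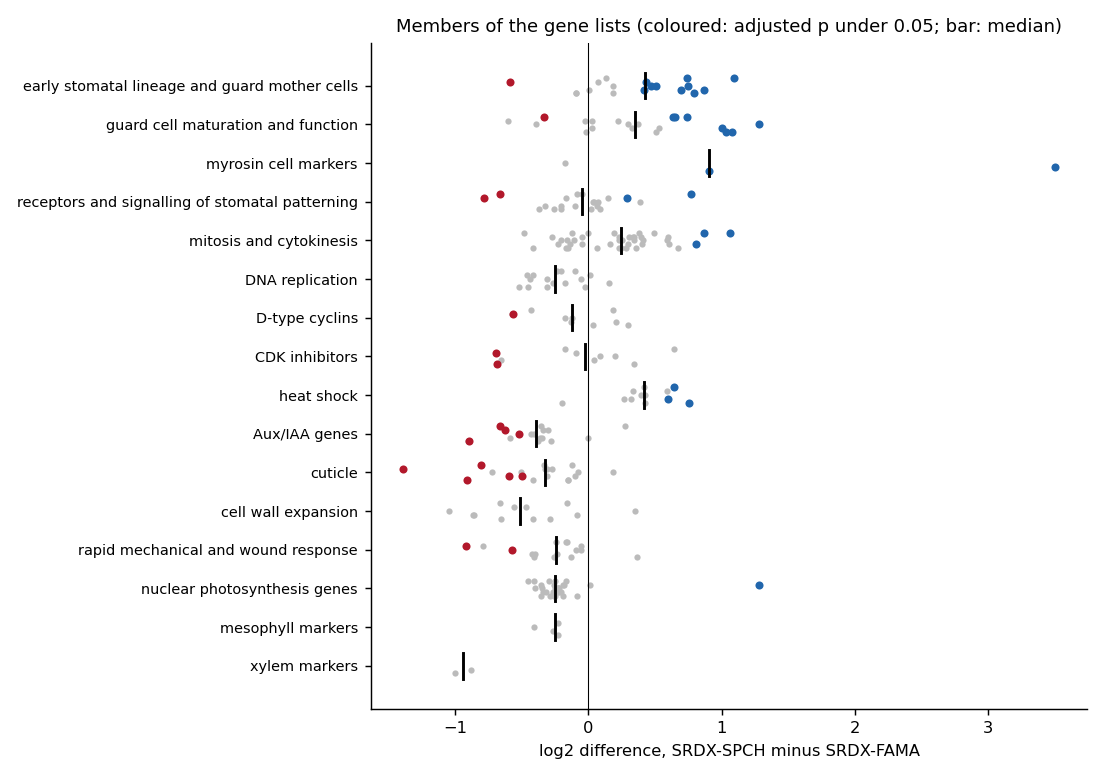
Log2 difference (SRDX-SPCH minus SRDX-FAMA) of each tested member of 16 gene lists (points), coloured where the adjusted p was under 0.05 and grey otherwise, with the list median as a bar. GC and early lineage genes have medians of 0.35 and 0.43, and the medians of the Aux/IAA, cuticle and cell wall expansion lists are -0.39, -0.33 and -0.51.

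Lists outside the stomatal lineage held genes that were lower in SRDX-SPCH, as 2.62% of all genes were. Of 19 cuticle genes 5 were lower and 0 higher (median -0.33, 1 of 19 above 0): CER1 (-0.91) and KCS1 (-0.80), enzymes of wax synthesis, LTPG1 (-0.50) and LTP2 (-1.39), which encode lipid transfer proteins, and CYP86A4 (-0.60), of cutin synthesis. KCS1 ran from 55.5 to 92.8 normalized CPM in SRDX-FAMA and from 21.9 to 58.3 in SRDX-SPCH. Within letters a to d only LTPG1 and CYP86A4 of the 5 passed the threshold, and within letters e and f none did. All 5 kept their calls with the letter as a block in a fit of all the libraries. Of 18 Aux/IAA genes, repressors that auxin removes and induces, 4 were lower, IAA6 (-0.89), IAA9 (-0.52), IAA13 (-0.66) and IAA19 (-0.62), and 1 of 18 lay above 0 (median -0.39). IAA9 was the clearest, with 80.3 to 127 normalized CPM in SRDX-FAMA and 60.2 to 90.8 in SRDX-SPCH (adjusted p = 0.000231). The number of Aux/IAA genes called was 1 without SRDX-SPCH 3 h replicate 3 and 5 without SRDX-FAMA 2 h replicate 3, and the calls of IAA6 and IAA13 were lost in 16 and 15 of 22 such fits. Within letters a to d only IAA9 of the 4 passed the threshold, and within letters e and f none did. An antisense gene covers 35.3% of the exonic bases of IAA13. Of 16 touch and wound response genes 2 were lower, TCH3 (-0.92), a calmodulin-like gene, and ERF104 (-0.58). RD29A, an abscisic acid and drought response gene, was lower by -1.13 (adjusted p = 0.00158) and was the only gene called of 14 on its list. None of 12 cell wall expansion genes (median -0.51), 18 jasmonate genes (median -0.12) or 16 ER chaperone genes (median 0.07) was called. Against NLS, 5 cuticle and 4 Aux/IAA genes were higher in SRDX-FAMA, as 3.08% of all genes were. In SRDX-SPCH 0 of either list was called, against 3.61% of all genes.

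Small heat shock protein genes were higher in SRDX-SPCH, as 2.68% of all genes were. Of 12 heat shock genes 3 were called, HSP17.6A (0.64), HSP17.6II (0.76) and HSP17.4 (0.60), and the summed level was 25320 to 39590 normalized CPM in SRDX-SPCH and 15640 to 34780 in SRDX-FAMA. The number called was 2 without SRDX-SPCH 3 h replicate 1 and 6 without SRDX-FAMA 2 h replicate 1, and 0 within either set of letters. The 3 calls were kept with the letter as a block in a fit of all the libraries. Antisense genes cover 70.9% of the exonic bases of HSP17.4.

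Among the genes called with a mean of at least 1 CPM, the largest difference was a lower level in SRDX-SPCH. AT2G28105, annotated as a replication factor-A domain protein (chromosome 2, 11976303 to 11977913, plus strand), stood at 4.34 to 15.3 normalized CPM in SRDX-FAMA (median 7.32) and at 0.265 to 0.936 in SRDX-SPCH (median 0.528), a difference of -3.98 (standard error 0.241, adjusted p = 1.49e-09). Its medians in the other lines were 0.535 in NLS, 0.597 in FAMA and 0.583 in SPCH, and it was higher in SRDX-FAMA than in NLS by 3.76 (adjusted p = 2.42e-18). Other genes overlap 31.2% of its exonic bases, FUC1 (0.61 higher) on the same strand and FRA8 (-1.41) on the other, and strand use in counting is not given in the sources used here, so its reads cannot be assigned with certainty. AT1G16500, annotated as a filamentous hemagglutinin transporter, had 9.75 to 32.3 normalized CPM in SRDX-FAMA and 3.24 to 7.22 in SRDX-SPCH (-2.0, standard error 0.184, adjusted p = 3.37e-07). Its medians in NLS, FAMA and SPCH were 4.21, 3.04 and 2.75, and it was higher in SRDX-FAMA than in NLS by 2.35 (adjusted p = 5.2e-12). GRP-3 (AT2G05520), a glycine-rich cell wall protein gene, had 64.4 to 186 in SRDX-FAMA and 12.3 to 46.6 in SRDX-SPCH (-1.94, standard error 0.185, adjusted p = 5.64e-07).

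Smaller differences of the same direction, with no overlap between lines, were found for HCT (-0.67), an enzyme of lignin synthesis, HKL1 (-0.55), a hexokinase-like gene, KNAT3 (-0.64), a KNOX homeobox gene, AT1G78460 (-1.08), a SOUL heme-binding gene, AT1G03230 (-0.76), an aspartyl protease gene whose neighbour AT1G03220 was also lower (-0.91), and AT5G02970 (-0.76), a hydrolase gene. Around the 20 leading genes of both directions without overlap, 7 of 45 nearest or overlapping genes were called, where 5.3% of all genes were. The reason was not tested. Among called genes with overlapping libraries and a mean of at least 1 CPM, the largest decreases were in AT3G16660 (-2.98), AT5G26220 (-2.12), a ChaC-like gene of glutathione turnover, and RNS1 (-2.07), a ribonuclease induced by phosphate starvation. RNS1 ran from 9.44 to 163 normalized CPM in SRDX-FAMA and from 6.17 to 34.1 in SRDX-SPCH. AT3G16660 rested on few libraries, with medians of 0.33 and 0.159 and a highest value of 16.2 in SRDX-FAMA, and without SRDX-FAMA 2 h replicate 2 its difference was -1.51 and short of the threshold, as it was in 9 other fits that left out a library.

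AT3G23510, a cyclopropane fatty acid synthase gene, had higher medians in the FAMA lines of either form than in NLS and the SPCH lines. It stood at 4.15 to 10.3 normalized CPM in SRDX-FAMA and at 0.124 to 2.36 in SRDX-SPCH (-2.80, standard error 0.308, adjusted p = 3.59e-06), and with the 5 lines scaled together its medians were 8.68 in FAMA, 7.10 in SRDX-FAMA and 0.725 to 0.864 in NLS, SPCH and SRDX-SPCH. The difference between SPCH and FAMA was -3.05 (adjusted p = 2.25e-06), and the interaction of 0.28 was short of the threshold (adjusted p = 0.963). Its neighbour AT3G23530, a near copy, differed by -0.30 (adjusted p = 0.281), and how reads were split between the copies is uncertain. The same limit holds for RBCS1B (1.28 higher, adjusted p = 2.31e-07), a Rubisco small subunit gene whose copies RBCS2B and RBCS3B differed by -0.45 and -0.35, short of the threshold.

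The contrast between SPCH and FAMA was then read with and without the SRDX domain, in libraries that are not shared. Of the FAMA libraries at 4 h, 1 carries no replicate of the labels in its name and was placed by the line and time that the name gives. Of 23843 genes tested, 208 (0.872%) were higher and 174 (0.73%) lower in SPCH than in FAMA, 1.6% in all. Of the 637 genes higher in SRDX-SPCH, 63 were also higher in SPCH (9.89% of the 637 and 30.3% of the 208) and 3 were lower. Of the 622 lower genes, 27 were also lower in SPCH (4.34% of the 622 and 15.5% of the 174) and 1 was higher. The median difference of the higher genes was 0.60 between the SRDX lines, which chose them, and 0.10 between the others, and that of the lower genes -0.58 and -0.11. The interaction of line and form called 325 of 24213 genes (1.34%), 177 with a more positive (0.731%) and 148 with a more negative (0.611%) difference between the SRDX lines. TGG2 differed in both pairs, by 3.50 and 1.68, and more between the SRDX lines (interaction 1.82, adjusted p = 0.000144). SLAC1 (1.28 and -0.02), SCAP1 (1.08 and -0.28), AT4G35070 (1.57 and -0.01), UMAMIT10 (2.69 and 0.46), KAT2 (1.03 and -0.19) and CHX20 (0.65 and -0.30) were past the interaction threshold as well. Genes named for their difference between the SRDX lines are favoured in this interaction, which contains that difference. AT1G19160, an F-box gene, differed by 1.34 between the SRDX lines and by -0.88 between SPCH and FAMA (interaction 2.21, adjusted p = 3.38e-09). For SDD1 the values were 0.79 and 2.23, and the interaction of -1.44 was short of the threshold (adjusted p = 0.0512).

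**Figure D5:**
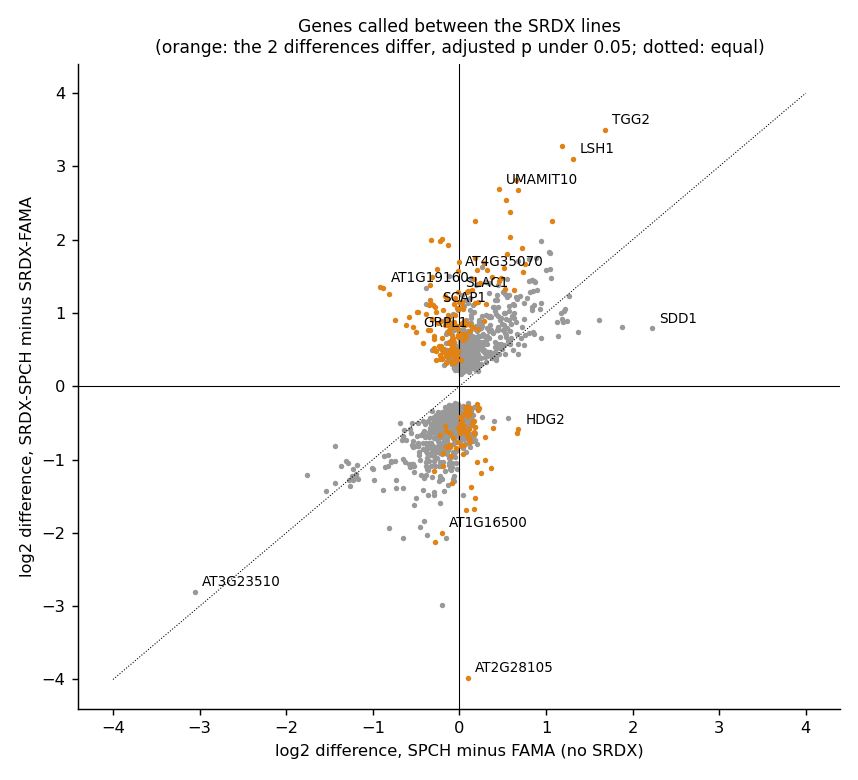
Log2 difference between the SRDX lines against that between the SPCH and FAMA lines for the genes called between the SRDX lines, with genes past the interaction threshold in orange and a dotted line where the differences are equal. SLAC1, SCAP1 and AT2G28105 lie near 0 on the horizontal axis (-0.02, -0.28 and 0.10), TGG2 is positive on both (3.50 and 1.68), and AT3G23510 is near the dotted line.

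The study followed up 23 genes, a list its authors chose partly on changes within and between the SPCH and FAMA lines of this series. Differences between those lines, and interactions that contain them, may therefore be favoured in the list. Of the 23 genes, 4 were higher and 2 lower in SRDX-SPCH (over all genes, 2.68% and 2.62%), with a median of -0.04. The higher ones were WSB (1.0), SDD1 (0.79), HIPP20 (0.93), which encodes a metal-binding isoprenylated protein, and GRPL1 (0.74). GRPL1 ran from 166 to 426 normalized CPM in SRDX-FAMA and from 219 to 570 in SRDX-SPCH. The lower ones were HDG2 (-0.59) and the oxygenase gene AT5G43450 (-1.13). SLL1 and SLL3, leucine-rich repeat protein genes, differed by -0.18 and 0.53 between the SRDX lines, short of the threshold, and by 1.3 and 2.06 between SPCH and FAMA, with interactions of -1.51 and -1.54 (adjusted p = 0.00234 and 0.0436).

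The difference between the SRDX lines was not seen to change with induction time. Of 24478 genes, 0 passed the interaction of line and time with edgeR or with DESeq2's likelihood ratio test, and 293 (1.2%) had an unadjusted p under 0.05. That is less than the share of 0.05 that p-values reach with no change at all, so the test was conservative. The 0 calls therefore do not show that the difference was constant. Tested at single time points, with 3 or 4 libraries per line, 12 genes were called at 2 h, 21 at 3 h and 32 at 4 h. TGG2 differed by 3.23, 3.91 and 3.40 at 2, 3 and 4 h, SLAC1 by 1.21, 1.36 and 1.29, and AT2G28105 by -3.96, -3.79 and -4.16.

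None of the 4 mesophyll markers (median -0.25), 4 pavement and protoderm markers (median -0.12), 3 phloem markers (median -0.66), 2 xylem markers (median -0.94) or 2 trichome markers (median 0.04) was called, and none of these markers was at 0 in both lines. The summed mesophyll markers stood at 1611 to 3150 normalized CPM in SRDX-SPCH and 1478 to 5189 in SRDX-FAMA, and the summed xylem markers at 29.8 to 159 and 37.8 to 227. Of 29 nuclear photosynthesis genes 1 was higher, RBCS1B (over all genes, 2.68%), and 2 of the 29 lay above 0 (median -0.25). Against NLS, the xylem proteases XCP1 and XCP2 were both higher in SRDX-FAMA, by 1.41 (adjusted p = 0.00295) and 1.28 (adjusted p = 0.00821), and in SRDX-SPCH they differed by 0.40 and 0.41, short of the threshold. Both were lower in SPCH than in FAMA, by -1.47 (adjusted p = 0.0038) and -1.3 (adjusted p = 0.00473). The part of cell composition in the differences above was not tested.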

How the data were processed

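Venus-positive cells of 5 induced lines were sorted and sequenced. The authors used STAR for alignment to TAIR10 and HTSeq for counting, and deposited raw counts of 27655 genes, without normalization. Versions of these tools and the use of strand are not given in the sources used here. Libraries were grouped by the line, time point and replicate of the labels. The study calls the replicates biological, and the labels do not say what separates them, so p-values measure the spread between these libraries. For SRDX-SPCH against SRDX-FAMA, counts of 22 libraries were scaled with TMM, filtered with filterByExpr (minimum count 10) and tested with edgeR 4.0.16 (quasi-likelihood test, R 4.3.3, limma 3.58.1) with time point as covariate and Benjamini-Hochberg adjustment over all genes tested at 0.05. Normalized CPM are TMM-scaled. SPCH against FAMA used the same test, and the 2 interactions and the contrasts with NLS used fits of the libraries concerned. The members and the gene lists were chosen with earlier results of these data known. Named genes were the 10 in each direction with the smallest adjusted p among called genes whose libraries did not overlap, the 5 in each direction with the largest called change at a mean of at least 1 CPM, the 23 genes the study followed up, 13 stomatal genes, called list members, and the 3 smallest p of each interaction (98 genes in all). Names came from the RefSeq table, which matched 27445 identifiers, and promoters from its genome. In simulated counts with 200 changed genes, the test recovered 97% of those changed by a log2 of 1 and 100% of those changed by 2 at a mean over 5 CPM, with 14 unchanged genes among 211 calls. The simulated libraries were independent, without the letter or time structure of the data. Smaller changes, the size of most calls here, were not simulated, so these rates may not hold for the data. Alternatives were DESeq2 1.42.0, its size factors, other count filters, replicate number or letter as a block, all lines in 1 fit, the excluded library kept, single time points, the plastid share as covariate and each library left out.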

Additional observations from a re-analysis of the deposited data

Results flagged for a closer look

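Of 92 checks, each of 1 measure in 4 libraries of a line and time point, 6 had a library far from the other 3. For independent checks chance gives about 1 in 20. These checks shared libraries, and most measures were levels of genes chosen because the lines did not overlap. The 6 therefore cannot be weighed against that share. TGG2 stood at 1110 normalized CPM in SRDX-FAMA 2 h against 620 to 669 in the other 3. In the same group UMAMIT10 stood at 13.9 (others 7.14 to 8.0), ABCG29 at 10.9 (others 7.18 to 7.36) and AT3G23510 at 4.15 (others 9.70 to 10.3). AT2G28105 had 12.3 in a library of SRDX-FAMA 3 h and 0.265 in a library of SRDX-SPCH 4 h.

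For 29 of the 98 named genes the difference between the SRDX lines differed from that between SPCH and FAMA. The test was edgeR's quasi-likelihood test of the interaction of line and form, at an adjusted p under 0.05. Over all genes tested, 1.34% passed. Many named genes were chosen for their difference between the SRDX lines, and some for a small p of this interaction. The interaction contains that difference, so the choice favours calls in its direction. It also contains the difference between SPCH and FAMA, on whose libraries the study partly chose its 23 genes, HDG2, SLL1, SLL3 and GRPL1 among them. The count of 29 therefore cannot be weighed against the share over all genes. The interaction was positive for LSH1 (1.84), AT3G58000 (2.22), TGG2 (1.82), AT1G10610 (0.97), SLAC1 (1.28), UMAMIT10 (2.25), AT4G35070 (1.57), SYP23 (0.84), ABCG29 (1.39), HCHIB (2.11), GRPL1 (1.23), SCAP1 (1.35), KAT2 (1.22), CHX20 (0.94) and AT1G19160 (2.21). It was negative for AT2G28105 (-4.08), AT1G16500 (-1.83), HCT (-0.47), AT1G78460 (-0.89), AT1G03230 (-0.89), HKL1 (-0.39), KNAT3 (-0.54), AT5G02970 (-0.78), AT5G26220 (-1.86), HDG2 (-1.29), SLL1 (-1.51), SLL3 (-1.54), CYCD3;2 (-0.96) and IAA9 (-0.55).

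In the library labelled SRDX-FAMA 4 h replicate 2, used in no comparison, SPCH stood at 9511 CPM, against 16.7 to 41.4 in the 11 other SRDX-FAMA libraries.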

How the results depend on the processing

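Of 1238 values of named genes under alternatives other than leaving out a library, 910 kept their direction and side of the threshold, 311 lost the call, 2 gained it and 15 changed sign, and of 1716 values with a library left out 1618 kept both, 87 lost the call and 11 changed sign. The cause of these changes was not tested. The counts of genes higher, lower and called in all were 637, 622 and 1259. DESeq2 gave 1083 lower and 1987 called, at least 10 counts in every library 945 lower, 1 fit of all 5 lines 1000 lower, a threshold of 0.1 1013 lower and 1961 called, and the plastid share as covariate 996 higher. With the letter as a block 1038 were higher and 1358 lower (2396 called), and with the excluded library kept under its label 364 and 363 (727 called). Fewer libraries gave 11 and 1 (12 called) at 2 h, 14 and 7 (21 called) at 3 h, 27 and 5 (32 called) at 4 h, 181 and 166 (347 called) within letters a to d, and 130 and 43 (173 called) within letters e and f. The fits within letters were chosen after seeing the data. The interaction of line and form called 160 genes with the excluded library kept, against 325, and SPCH against FAMA 624 with DESeq2 and 206 with the replicate block, against 382. Leaving out single libraries gave 436 to 705 higher genes, 464 to 724 lower, 917 to 1387 called, 264 to 356 for the interaction with form, 296 to 493 for SPCH against FAMA and 0 for the interaction with time. Replicate numbers did not pair the libraries (10 pairs of the same number, r from -0.47 to 0.53, 4 over 0.1), and with the replicate block 629 genes were higher and 670 lower. Among 8 pairs of the same letter, r ran from -0.07 to 0.58 (7 over 0.1, median 0.39, against -0.09 for other letters), and the labels do not say what the letter marks. The share of higher among called genes was 50.6% in edgeR, 45.5% with DESeq2, 43.3% with the letter block, 40.1% in the fit of all 5 lines, 66.7% at 3 h, 84.4% at 4 h and 75.1% within letters e and f.

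EPF2, near 0 in the full fit, changed sign with DESeq2 (-0.0003691), its size factors (-0.002298), no filter (-0.002319), at least 10 counts (-0.005437), the replicate block (-0.01783), all 5 lines (-0.002148), at 2 h (-0.24), at 3 h (-0.14) and within letters a to d (-0.13), and ranged from -0.0783 to 0.0951 with single libraries left out. MUTE turned to -0.19 at 2 h and -0.14 within letters a to d, POLAR to 0.01006 at 3 h and 0.20 at 4 h, CYCD7;1 to -0.36 at 3 h and CYCD5;1 to 0.0875 at 4 h. Calls lost when a single library was left out were those of SDD1, EPF1, TMM, SCRM, KAT1, CA4, CDKB2;1, SIM, IAA6, IAA13, IAA19, HSP17.4 and AT3G16660, and TMM and IAA6 also lost theirs with the replicate block. Depth was lowest in SRDX-SPCH 2 h replicate 3 (7296381 counts), so genes near 1 CPM had few reads there.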

Other observations

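Among the genes whose libraries did not overlap between the SRDX lines, several lay outside the naming rule. Those given here were chosen after their values were seen, and their differences come from the same test as above. Transporter genes were among the higher ones. UMAMIT31, a second UmamiT transporter gene, stood at 2.60 to 7.41 normalized CPM in SRDX-FAMA and 13.6 to 36.2 in SRDX-SPCH (log2 difference 2.26), and the proton pump gene HA5 at 134.5 to 261 and 280.3 to 475 (0.99). The sucrose transporter gene SUT4 ran from 18.9 to 31.96 and from 32.1 to 71.9 (1.02), so that the lines nearly touched. The aquaporin gene PIP2B and the ABC transporter gene ABCA10 were higher by 1.42 and 2.04. Transcriptional regulators on the same side were ZPR3 (1.25), a little zipper gene that restrains class III homeodomain factors, HB-7 (2.68), a homeodomain gene responsive to water deficit, TGA7 (1.74), a bZIP gene, and NAC028 (1.6). ZPR3 was the most abundant of them, with 51.2 to 116 normalized CPM in SRDX-FAMA and 134 to 252 in SRDX-SPCH. The peptide gene CLE41 (1.89), known as a signal from phloem that maintains vascular stem cells, and GA2OX2 (1.99), which inactivates gibberellin, were also higher.

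On the lower side, the libraries did not overlap for the pectin methylesterase gene PME44 (116 to 178.5 normalized CPM in SRDX-FAMA, 45.9 to 109 in SRDX-SPCH, log2 difference -0.88), the S-adenosylmethionine synthetase gene MTO3 (-0.54), the bHLH gene UNE12 (-0.70), the receptor-like kinase gene CRK10 (-0.52), the nitrate transporter gene NRT1.8 (-1.02) and the kelch F-box gene AT1G15670 (-1.15).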
